A study of Homo sapiens with 4 samples.

Results

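ACVR1B, TGFBR2 and SMAD3 encode 2 cell surface receptors and a transducer of the TGF-beta and activin pathway, and they were 3 of the 1843 genes measured on these arrays. They were taken as all spots that carry these names in the spot tables, which gave 6 of 3840 spots per array, 2 spots of 1 probe for each gene. The 3 genes were picked with their BM over MRS ratios in view: ACVR1B for a large ratio of one sign on both arrays, and SMAD3 and TGFBR2 as the pathway genes listed with it. Their ratios are therefore given below as a description, without a test.

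The cells were SW480, an established line from a colon adenocarcinoma. The treated group (BM) received 15% by volume of a postbiotic of Bacillus mojavensis, a preparation from a culture of that bacterium grown in MRS medium, for 10 h, and the control group (MRS) received 15% of plain MRS medium for the same time. Each group held 2 samples, described as independently grown and harvested, and no other treatment or time was measured. Array 1 held BM replicate 1 and MRS replicate 1, and array 2 held BM replicate 2 and MRS replicate 2. Both arrays carried BM in Alexa Fluor 647 and MRS in Alexa Fluor 555. Without a dye swap, dye and treatment cannot be told apart in any ratio below. Group membership was read from the titles, since all 4 samples list MRS medium as their treatment.

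TGF-beta and activin are secreted ligands that bind a type II receptor, which then phosphorylates a type I receptor of the same complex. TGFBR2 is the type II receptor for TGF-beta, and ACVR1B, also called ALK4, is a type I receptor for activin. Active type I receptors phosphorylate SMAD2 and SMAD3, which join SMAD4 and enter the nucleus to act on target genes. In the colon epithelium the pathway restrains growth, and TGFBR2 is often inactivated by mutation in colon cancers with microsatellite instability. Whether the pathway was intact or active in the SW480 cells was not measured on these arrays.

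The median raw spot intensity, in arbitrary units, was 1655 and 1895 in the BM samples and 1985 and 2186 in the MRS samples, against median local backgrounds of 79.5 and 101.7 in BM and 49.6 and 51.9 in MRS. Of the fixed marker lists, 8 of 8 measured colon epithelium markers, 5 of 5 fibroblast markers and 4 of 4 leukocyte markers were above background. So were 1832 of all 1843 genes. Above background means at least 1.5 times the local background in at least 1 channel on both arrays. Being above background therefore did not separate the labelled cell type from others on these arrays. The median ratios of these lists were 0.042, -0.051 and -0.069 on the log2 scale, and their part in the values below was not tested. With 2 arrays, the number of arrays limits the precision of every value.

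The probe for ACVR1B is named for the RefSeq transcript NM_020327. After subtraction of the local background its 2 spots read 2273 and 2723 in BM replicate 1 and 2751 and 2580 in BM replicate 2, against 2236 and 2674 in MRS replicate 1 and 2778 and 2589 in MRS replicate 2. The raw signals of the groups thus overlapped, and on each array the BM and MRS channels were nearly equal. The spots stood 25.4 to 34.6 times above their local background in BM and 41.8 to 50.5 times in MRS.

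The probe for TGFBR2 is named for NM_003242. Its spots read 4139 and 4232 in BM replicate 1 and 4388 and 4905 in BM replicate 2, against 5321 and 5489 in MRS replicate 1 and 5253 and 5713 in MRS replicate 2. All 4 BM readings lay below all 4 MRS readings, as for 5.32% of all genes by the same measure of their spots. The spots stood 46.9 to 55.6 times above background in BM and 109.6 to 123.6 times in MRS.

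The probe for SMAD3 is named for NM_005902. Its spots read 1012 and 1101 in BM replicate 1 and 1159 and 809.6 in BM replicate 2, against 1156 and 1248 in MRS replicate 1 and 1259 and 807.1 in MRS replicate 2. The groups overlapped, and on array 2 the second spot was dimmer than the first in both channels. These spots stood 8.15 to 14.3 times above background in BM and 13.0 to 22.5 times in MRS. Each gene had a single probe, so transcript variants that the probe does or does not detect could not be separated.

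**Figure D1:**
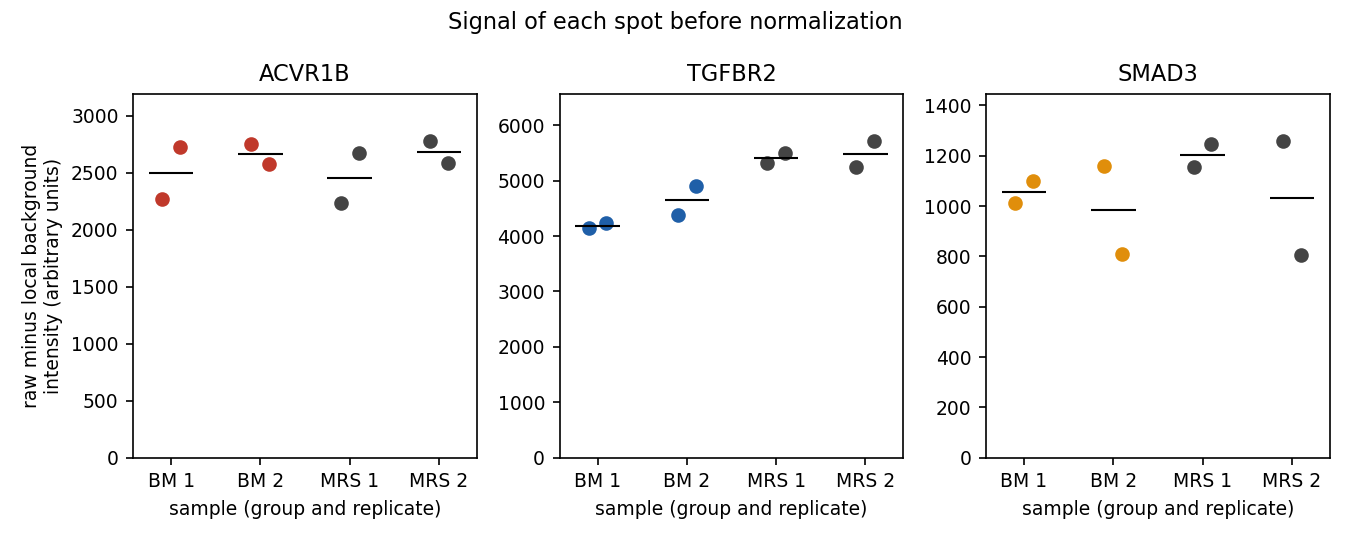
Raw minus local background intensity (arbitrary units, linear axis from 0) of the 2 spots of each gene in the 2 BM and the 2 MRS samples. Points are single spots and bars their mean. TGFBR2 is lower in both BM samples, ACVR1B is near equal in the channels of each array, and the SMAD3 spots of replicate 2 lie apart in both groups.

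Before normalization most genes were dimmer in the BM channel. The median BM over MRS ratio of background-subtracted signals over all genes was 0.828 on array 1 and 0.863 on array 2, and it depended on intensity. The members were therefore set against the 200 genes nearest to each in mean intensity.

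ACVR1B had a BM over MRS ratio of 1.02 on array 1 and 0.993 on array 2 before normalization, while its 200 neighbours in intensity had medians of 0.824 and 0.845. Just 2.5% of these neighbours on array 1 and 4% on array 2 had more signal in BM than in MRS. The higher ratio of ACVR1B after normalization is thus a ratio near 1 in a background of genes below 1.

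SMAD3 had ratios of 0.879 and 0.961 before normalization, against neighbour medians of 0.802 and 0.840. Averaged over its spots it was dimmer in BM on both arrays, but less so than the median gene of like intensity. TGFBR2 had ratios of 0.774 and 0.847, against neighbour medians of 0.868 and 0.870. On array 2 it thus differed little from its neighbours.

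**Figure D2:**
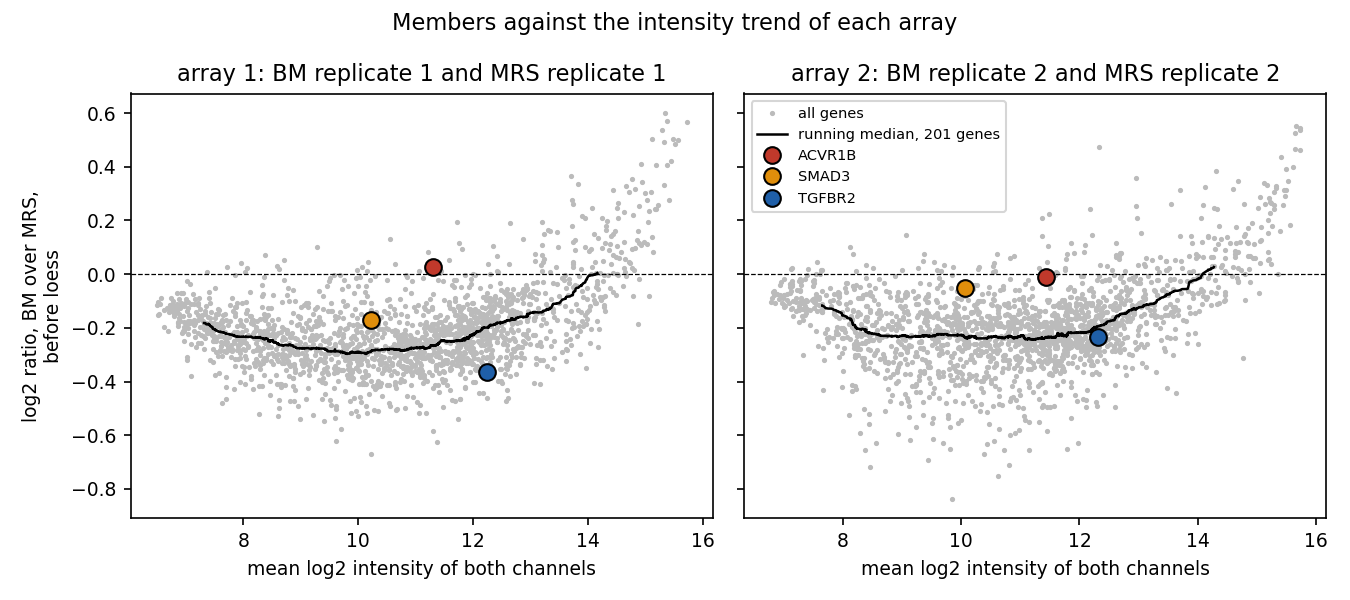
Log2 ratio of BM over MRS before loess against the mean log2 intensity of both channels, for array 1 (left) and array 2 (right). Grey points are all genes, the line is a running median, and coloured points are the members. ACVR1B and SMAD3 lie above the running median on both arrays, while TGFBR2 lies below it on array 1 and close to it on array 2.

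Loess, a smooth curve of ratio on intensity fitted within each array, was then subtracted, so that a log2 ratio of 0 means the ratio typical of that intensity. All ratios from here on are log2 of BM over MRS after this step, as mean ± SD of the 2 arrays, and show unequal change and not absolute amounts. Equal RNA amounts were labelled, so less of a transcript per cell and a larger total of other RNA cannot be told apart.

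ACVR1B, the activin type I receptor, had a log2 ratio of 0.29 on array 1 and 0.22 on array 2. The mean was 0.26 ± 0.047 (SD, n = 2), or 1.19-fold in BM. It stood higher than 98.5% of genes on array 1 and 96.5% on array 2. Of its 200 neighbours in intensity, 2 had a higher ratio on array 1 and 9 on array 2. Its normalized log2 level was 11.45 and 11.54 in BM, against 11.16 and 11.31 in MRS, and the groups did not overlap. By this measure, on levels not scaled between arrays, both BM levels exceeded both MRS levels in 2.93% of all genes.

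TGFBR2, the TGF-beta type II receptor, had a log2 ratio of -0.15 on array 1 and -0.047 on array 2. The mean was -0.10 ± 0.076 (SD, n = 2), or 0.933-fold in BM. Its place differed between the arrays: 7.43% of genes lay below it on array 1 and 33.0% on array 2. Its normalized log2 level was 12.16 and 12.30 in BM, against 12.31 and 12.35 in MRS. The groups did not overlap, as in 3.53% of all genes with BM below MRS, but BM replicate 2 and MRS replicate 1 were nearly level.

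SMAD3, the transducer, had a log2 ratio of 0.11 on array 1 and 0.18 on array 2. The mean was 0.15 ± 0.051 (SD, n = 2), or 1.11-fold in BM. It stood higher than 86.3% of genes on array 1 and 94.6% on array 2. Its normalized log2 level was 10.27 and 10.15 in BM, against 10.16 and 9.97 in MRS, so the groups overlapped. The difference between the members in the ratio was 0.36 ± 0.12 for ACVR1B minus TGFBR2, 0.25 ± 0.025 for SMAD3 minus TGFBR2 and 0.11 ± 0.098 for ACVR1B minus SMAD3 (SD, n = 2 each). The last of these was close to its own spread.

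Each of the 3 members kept one sign on both arrays, as did 53.2% of all genes. With limma's moderated test and Benjamini-Hochberg adjustment over all 1843 genes, 0 genes (0.00%) passed at an adjusted p of 0.05, and 121 genes had an unadjusted p under 0.05. Among genes higher in BM on both arrays, 8 had a larger value than ACVR1B in the smaller of their 2 ratios (0.22 for ACVR1B) and 59 than SMAD3 (0.11). Among genes lower on both arrays, 231 had a larger value in size than TGFBR2 (0.047).

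**Figure D3:**
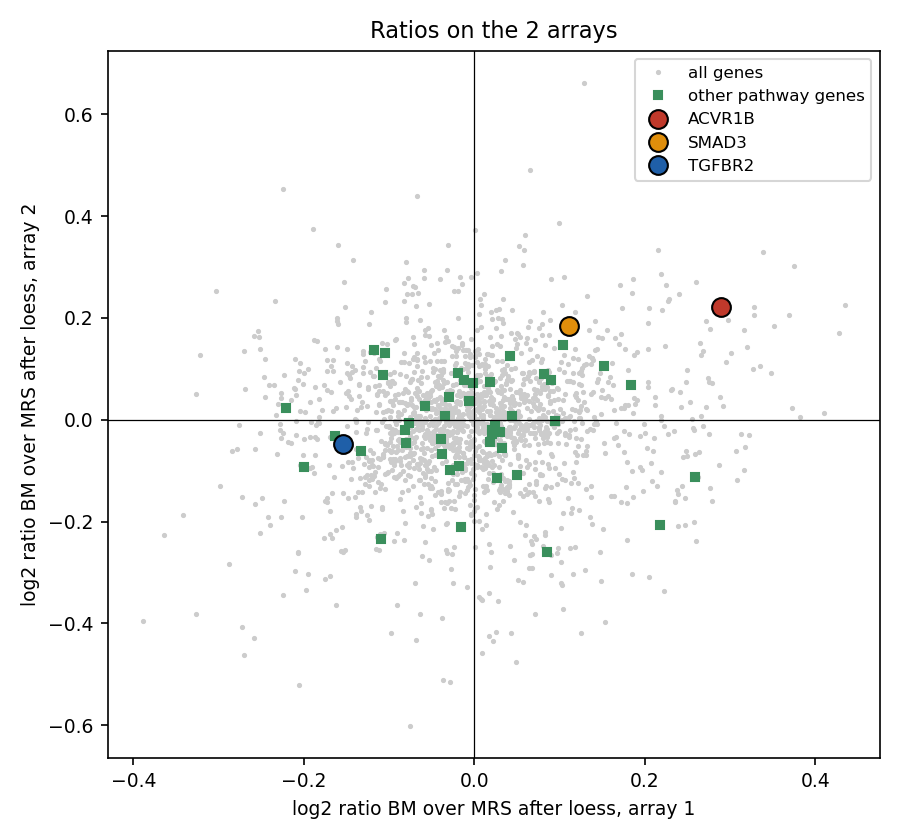
Log2 ratio of BM over MRS after loess on array 1 (x axis) and array 2 (y axis). Grey points are all genes, green squares the other measured genes of the pathway lists and large points the members. ACVR1B (0.29 and 0.22) lies towards the upper right edge, SMAD3 (0.11 and 0.18) nearer the centre and TGFBR2 (-0.15 and -0.047) within the main cloud.

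The duplicate spots show how well 1 array measured its pair of samples. The 2 ACVR1B spots gave log2 ratios of 0.29 and 0.29 on array 1, and 0.22 and 0.23 on array 2. The TGFBR2 spots gave -0.15 and -0.16 on array 1 and -0.061 and -0.033 on array 2. The SMAD3 spots gave 0.11 and 0.12 on array 1, but 0.13 and 0.24 on array 2.

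The 2 SMAD3 spots of array 2 differed by 0.12, and 5.46% of the 1849 probes with 2 spots differed by more on that array, where the median difference was 0.034. The differences of ACVR1B and TGFBR2 spots, 0.0083 to 0.028, were below the median of their array (0.026 on array 1 and 0.034 on array 2). Between the arrays, ACVR1B ratios differed by 0.067, TGFBR2 ratios by 0.11 and SMAD3 ratios by 0.072, against a median of 0.089 over all genes. Spots of an array share their 2 RNA samples, so their agreement is technical.

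The spots of a gene also share a print block. The median log2 ratio of the other spots in the block was -0.015 and 0.0067 for ACVR1B (arrays 1 and 2), -0.0082 and -0.019 for TGFBR2 and -0.0093 and -0.0096 for SMAD3. These are small against the ratios of ACVR1B and SMAD3, but a block median does not show effects on a smaller area. An effect of position on the ratios was not tested. For TGFBR2 on array 2 the block median is a sizeable part of a ratio of -0.047.

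Whether the arrays were normalized set the sign of SMAD3 and the size of ACVR1B. Over plain background subtraction, no background correction, median centring, print-tip loess (loess within each print block) and the deposited net intensities, ACVR1B ran from 0.22 to 0.26, SMAD3 from 0.097 to 0.18 and TGFBR2 from -0.12 to -0.091. With no normalization within the array the values were 0.0090 for ACVR1B, -0.11 for SMAD3 and -0.30 for TGFBR2, and the median of all genes was then -0.21. Relative to that median the members kept their order.

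**Figure D4:**
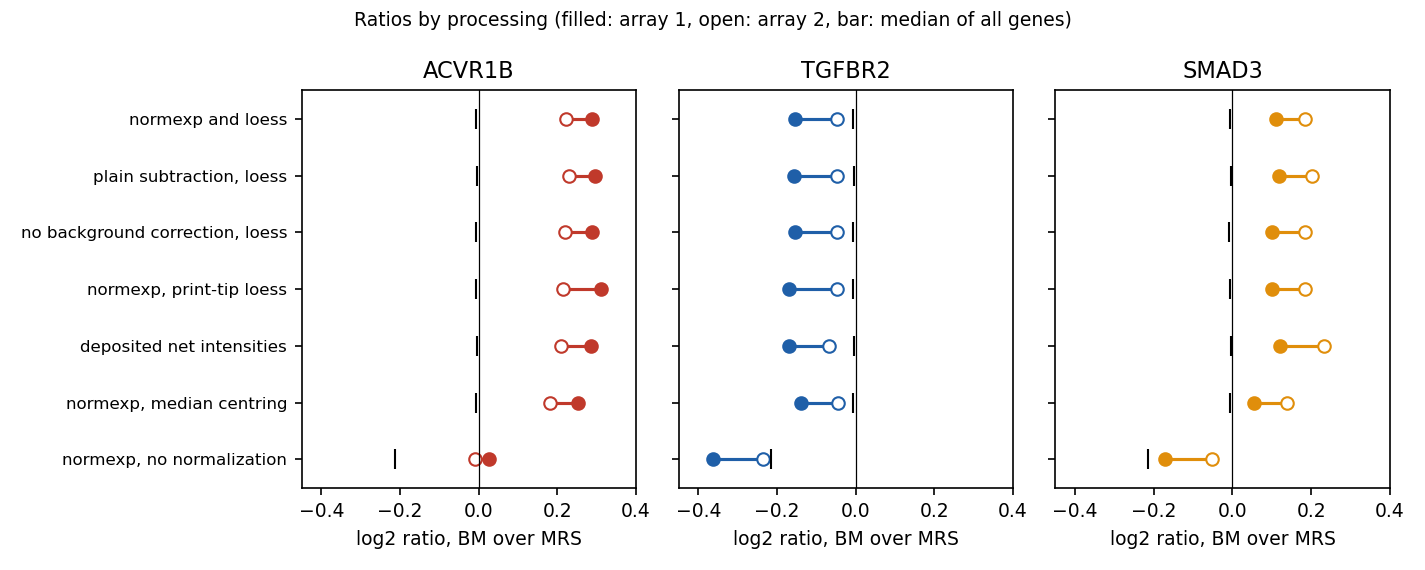
Log2 ratio of BM over MRS for each member under 7 ways of processing, with array 1 as filled and array 2 as open circles and the median of all genes as a bar. ACVR1B and SMAD3 lie to the right of the bar and TGFBR2 to its left in every setting drawn. Without normalization (bottom) the bar moves to -0.21 and SMAD3 falls below 0.

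The authors' deposited table compares the groups per spot by a z ratio and a fold change of scaled mean net intensities. ACVR1B had z ratios of 2.35 and 2.42 for its 2 spots in the authors' deposited table, at 1.18-fold and 1.19-fold. SMAD3 had z ratios of 1.61 and 1.79 in the authors' deposited table, at 1.12-fold and 1.13-fold. TGFBR2 had z ratios of -1.10 and -1.03 in the authors' deposited table, at 0.921-fold and 0.926-fold. A z ratio of at least 2 in the authors' deposited table, a threshold chosen here, was reached by 2.48% of the 3786 spots that are not controls, among them both ACVR1B spots. These scores rest on the same samples and contrast on which ACVR1B was picked, so they are not separate support.

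The other genes of the pathway were taken from 5 lists by role. Of 125 listed genes besides the members, 43 were measured and 41 were above background, as were 1832 of all 1843 genes. By limma, 0 of the 43 passed in either direction over all genes (0.00% of all genes did), and 1, COL1A2, had an unadjusted p under 0.05. On both arrays 8 were higher in BM, 12 were lower and 23 had opposite signs, while over all genes 24.6% were higher and 28.5% lower on both. The median ratio of the 43 was -0.0040, against -0.0057 over all genes, and it stayed within -0.013 to 0.0030 over the processing settings that normalize the ratios.

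Of the ligands 4 were measured, with a median of 0.0022 that ran from -0.035 to 0.045 over the settings that normalize the ratios. INHA, the inhibin alpha subunit, which forms a dimer that opposes activin, had 0.10 and 0.15 on arrays 1 and 2, or 0.12 ± 0.030 (SD, n = 2), and did not pass (adjusted p = 0.771, limma). The ligands TGFB1 and TGFB3 and the bone morphogenetic protein BMP7 had opposite signs on the arrays, with means of -0.029, -0.099 and 0.034.

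Besides the members, 3 receptors were measured, and 0 passed. ENG, or endoglin, a coreceptor for TGF-beta, had -0.080 and -0.046, a mean of -0.063 ± 0.025 (SD, n = 2), and -0.11 with median centring. ACVRL1, or ALK1, a type I receptor known from endothelial cells, had 0.024 and -0.012, with a mean that turned to -0.044 with median centring. BMPR1B, a type I receptor for bone morphogenetic proteins, had 0.031 and -0.023 and was not above background, and its mean ran from -0.084 to 0.11 over the settings. Of the 5 receptors measured, ACVR1B thus had the highest ratio on both arrays and TGFBR2 the lowest on both, though on array 2 it was nearly level with ENG (-0.047 and -0.046). With median centring the mean ratio of ENG (-0.11) was below that of TGFBR2 (-0.091). The order after loess follows in part from how the members were picked.

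Among SMADs and their cofactors 8 were measured besides SMAD3, with 0 higher and 4 lower on both arrays (24.6% and 28.5% over all genes). Their median was -0.027, which was -0.00064 with median centring. SMAD2, the other transducer of ACVR1B and of the TGF-beta receptors, had -0.076 and -0.0063, a mean of -0.041 ± 0.049 (SD, n = 2), so its ratio was within its spread, and it ran from -0.088 to -0.0089 over the settings. SMAD4, the partner that SMAD2 and SMAD3 share, had 0.26 on array 1 and -0.11 on array 2. Its mean of 0.074 ± 0.26 (SD, n = 2) rests on opposite signs. SMAD5, a transducer of bone morphogenetic proteins, had -0.038 and -0.067. It was dim, with mean log2 intensities of 6.86 and 7.33 against medians of 10.8 and 11.0 over all genes. Its mean was -0.19 in the deposited net intensities and turned to 0.027 with median centring.

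FOXH1, a DNA-binding partner of SMADs in nodal and activin signalling, had -0.20 and -0.093, a mean of -0.15 ± 0.076 (SD, n = 2; adjusted p = 0.771, limma), but -0.072 with median centring. MAP3K7, or TAK1, a kinase activated by TGF-beta outside the SMAD route, had -0.018 and -0.090. Its mean of -0.054 ran from -0.086 to -0.024 over the settings. After loess the higher ratio of SMAD3 on both arrays was therefore not shared by the other SMADs measured. Whether it differs from theirs was not tested.

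Of the inhibitors 4 were measured, with a median of -0.043 (-0.077 with print-tip loess). BAMBI, a pseudoreceptor that blocks type I receptors, had -0.13 and -0.062, a mean of -0.097 ± 0.050 (SD, n = 2), but -0.016 with median centring (adjusted p = 0.775 after loess, limma). The SMAD corepressors SKI and SKIL and the activin-binding protein FSTL3 had opposite signs on the arrays. The widest gap was that of SKIL, with 0.086 and -0.26.

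Of the target genes 24 were measured, all above background, with 7 higher and 6 lower in BM on both arrays (24.6% and 28.5% over all genes). Their median was 0.0077, which was 0.041 with median centring. COL1A2, a chain of type I collagen, had -0.11 and -0.23, a mean of -0.17 ± 0.088 (SD, n = 2; adjusted p = 0.697, limma). COL1A1, the other chain of that collagen, had 0.090 and 0.079, a mean of 0.084 ± 0.0075 (SD, n = 2), which shrank to 0.037 under print-tip loess and to 0.032 in the deposited net intensities. MMP2, a matrix protease, had 0.15 and 0.10. PDGFB, a growth factor chain, had 0.082 and 0.090, and its mean of 0.086 moved to 0.044 with median centring. The 2 collagen chains thus had opposite signs, and no target passed.

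Ordered by the smaller of their 2 ratios in size, the 23 of 46 measured pathway genes that kept one sign were led by ACVR1B (0.22) and SMAD3 (0.11). COL1A2 (0.11), MMP2 (0.10) and INHA (0.10) followed close to SMAD3, and TGFBR2 (0.047) came 11th. SMAD3 and TGFBR2 therefore do not stand clear of the rest of the pathway. ACVR1B was picked for a large ratio of one sign on both arrays, so its first place follows in part from that choice.

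**Figure D5:**
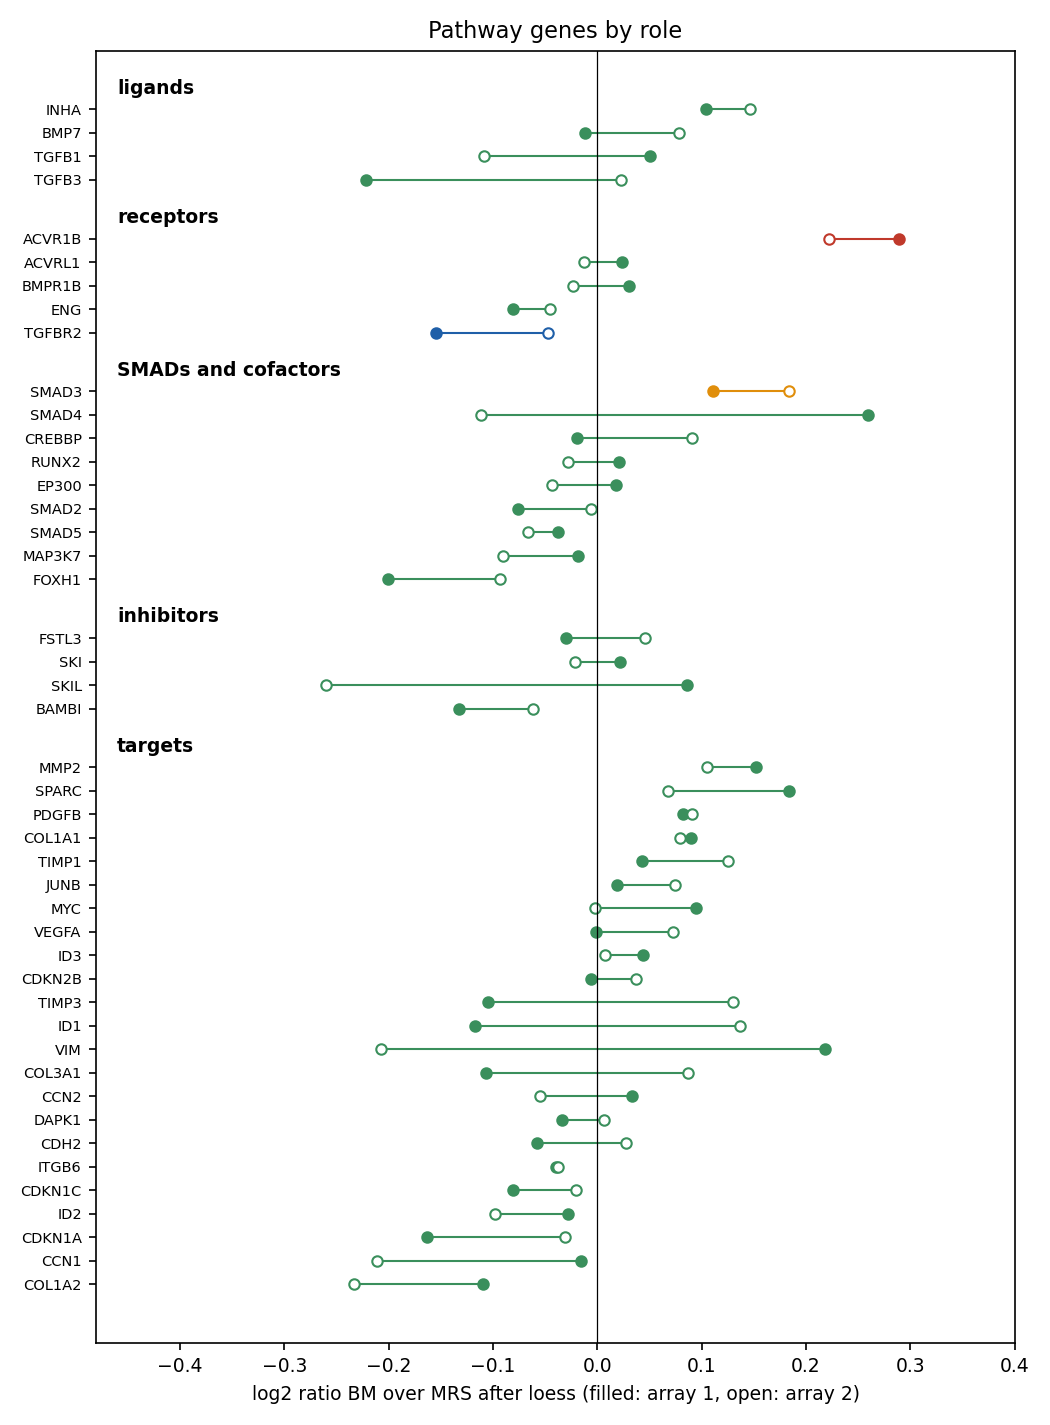
Log2 ratio of BM over MRS after loess for the measured genes of the pathway except 1 that is not reported here, grouped by role and ordered by mean ratio, with array 1 as filled and array 2 as open circles joined by a line. ACVR1B lies clear of 0 on both arrays, and many genes have circles on both sides of 0.

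The genes most like each member were those with the smallest Euclidean distance between the pairs of array ratios, over 2 arrays, among named genes above background. For ACVR1B these were IGFBP6 (0.30 and 0.20), an IGF-binding protein, NQO1 (0.27 and 0.19), a quinone reductase, and PPARG (0.33 and 0.22), a nuclear receptor, at distances of 0.029 to 0.039. For TGFBR2 these were NDN (-0.15 and -0.054), STAT3 (-0.15 and -0.038), a transcription factor of cytokine signalling, and RABL2B (-0.14 and -0.053), at distances of 0.0072 to 0.011. For SMAD3 these were TCEAL1 (0.14 and 0.18), DNM1 (0.089 and 0.20), a dynamin, and TAP1 (0.088 and 0.17), a peptide transporter, at distances of 0.025 to 0.029. With median centring NDN and STAT3 turned to 0.086 and 0.063, while TGFBR2 stayed at -0.091. With 2 ratios a gene, such nearness is common near the centre of the distribution and is given as a description.

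The reference genes ACTB and GAPDH had mean ratios of 0.034 ± 0.062 and 0.020 ± 0.0083 (SD, n = 2), which turned to -0.0039 and -0.017 with median centring. The ratios of ACVR1B and SMAD3 were larger than both on each array, which follows in part from how the members were picked.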

How the data were processed

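The spot tables hold, per the file headers, a mean raw intensity and a mean local background per channel of each spot. The deposited series matrix holds net intensities. They equal raw minus background in the MRS channel, while the BM channel holds a further factor (median 1.21 and 1.18 on arrays 1 and 2). This factor depended on intensity. Its median was 1.305 for the dimmest and 0.9755 for the brightest spots on array 1, and 1.169 and 0.9726 on array 2. Ratios of the deposited net intensities are therefore not a separate check on loess, which also adjusts by intensity. The submitters' deposited comparison lists 2 scores per spot, a z ratio and a log of the fold to base 1.2. R 4.2.2 appears in the submitters' processing notes with no role stated, and the image software was not given in the sources used here.

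Here raw intensities were corrected with normexp (offset 50) and loess in R 4.3.3 with limma 3.58.1. The 54 control spots had weight 0 and were then dropped. Duplicate spots were averaged, and a gene with several probes was represented by the brightest. RefSeq accessions (GRCh38 table) named 1701 of 1856 probes, 75 were named by symbol or synonym, 5 by the file and 75 stayed unnamed. Genes were tested with limma on the 2 ratios (two-sided, Benjamini-Hochberg over 1843 genes, threshold 0.05). The steps were tested on simulated data with planted changes larger than the ratios of the members. The simulation thus does not show how the steps perform for changes as small as theirs. The labels put samples of 1 replicate number on 1 array, so each ratio keeps the replicate as a block.

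The members and lists were chosen with earlier results of these data known. Named were the members, all measured receptors and SMADs, up to 4 genes per list that kept one sign and were above background, by the smaller of their 2 ratios in size, the 3 genes most like each member, and ACTB and GAPDH. Genes named outside this rule (TGFB1, TGFB3, BMP7, SKI, SKIL, FSTL3 and those of the closing observations) were chosen after their values were seen. Of the target genes, 1 is counted but not reported by name here.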

Additional observations from a re-analysis of the deposited data

How the results depend on the processing

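The ratios of the 3 members kept their sign and moved by less than 1 SD of the 2 arrays with plain background subtraction, no background correction, median centring, print-tip loess, the deposited net intensities and each of their 2 spots alone. With no normalization within the array, added after seeing the data, ACVR1B moved to 0.0090, TGFBR2 to -0.30 and SMAD3 to -0.11. In that setting 1251 of all 1843 genes passed (44 higher and 1207 lower in BM), and so did 28 of the 43 other pathway genes measured. The setting keeps the difference between the channels of the whole array. Median centring called 34 genes (33 higher and 1 lower), with 0 other pathway genes.

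Leaving out 1 array, or 1 sample at a time in a fit without the block (added after seeing the data), gave 0.22 to 0.29 for ACVR1B, -0.16 to -0.043 for TGFBR2 and -0.097 to 0.39 for SMAD3. SMAD3 was -0.061 without BM replicate 1, -0.097 without MRS replicate 2, 0.36 without BM replicate 2 and 0.39 without MRS replicate 1. For the fits without 1 sample, mean intensities were first quantile-normalized between the arrays, which gives both arrays the same distribution. These fits still mix differences between arrays into the ratio, and the lone sample is assumed to vary like the others. No gene passed in these fits by limma. The fit with no replicate block and all samples gave 0.26, -0.10 and 0.15, the same means by construction, and called 0 genes and 0 pathway genes. With 1 array left there is no residual spread, so no count was made. Other counts stayed at 0. Each member has 1 probe, so a mean over probes could not change it.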

Other observations

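Some of the 24 measured target genes are given here as a description and do not stand for the list. CDKN2B, a cell cycle inhibitor induced by TGF-beta in epithelial cells, had log2 ratios of BM over MRS of -0.0063 and 0.037 on arrays 1 and 2, and CDKN1A, another such inhibitor, had -0.16 and -0.031. CDKN2B was dim, with mean log2 intensities of 7.04 and 7.21 on arrays 1 and 2 against medians of 10.8 and 11.0 over all genes. MYC, which TGF-beta represses in epithelial cells, had 0.095 and -0.0022. VIM, a mesenchymal filament gene, had 0.22 and -0.21, so the 2 pairs of cultures gave ratios of opposite sign and like size. CCN1, a matricellular protein gene, had -0.015 and -0.21. These genes were chosen after their values were seen, and none passed the limma test over all genes.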
